A study of Mus musculus with 4 samples.

Results

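The transcripts described here encode the heat shock proteins of mouse, their DnaJ and BAG cochaperones and a heat shock factor, as they were recovered with the RNA-binding protein CUGBP1 from myoblasts. They were chosen by gene symbol alone (the DnaJ A, B and C genes, the Hspa, Hspb, Hspd, Hspe, Hsph and Hsp90 genes, *Bag1* to *Bag6* and a pair of heat shock factors), with a rule that uses no measured value. The choice gave 91 probe sets of 75 genes, out of 21044 probe sets of 19452 genes that the array annotation pairs with exactly 1 gene, or 0.432% of the probe sets. Of the genes the symbols cover, *Hspa1b* was represented only beside another gene, and of the pair of heat shock factors only *Hsf2* was measured here. No probe set naming *Hsp90ab1* was found, so the Hsp90 class below holds *Hsp90aa1* and *Hsp90b1* only.

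The study asked which mRNAs are associated with CUGBP1 in muscle cells. RNA was recovered from cytoplasmic lysates with the mouse monoclonal antibody 3B1 against CUGBP1 (CUGBP1 IP, 2 arrays) or with normal IgG (control IgG, 2 arrays), and hybridized to Affymetrix Mouse Gene 1.0 ST arrays. Both groups came from the same line of proliferating C2C12 (LKO-1) cells, a mouse myoblast line that carries an empty lentiviral vector as a stable line under puromycin, kept below the density at which it differentiates. The arrays of input RNA were not analysed here, so a ratio between the immunoprecipitates says nothing of how much of a transcript the cells held.

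Hsp70 proteins bind stretches of unfolded protein and release them in a cycle driven by ATP. DnaJ proteins bring clients to Hsp70 and stimulate its ATPase through their J domain, BAG and Hsp110 proteins promote the exchange of nucleotide that ends the cycle, and Hsp90 takes over partly folded clients. Small heat shock proteins hold unfolded protein without ATP, several of them in muscle, and heat shock factors switch on many of these genes under stress.

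Each value is an intensity divided by the 5th percentile of its own array, so a probe set with no transcript reads about 1. As a background range, the 95th percentile of olfactory and vomeronasal receptor probe sets was taken, which was 1.23 and 1.29 for CUGBP1 IP and 1.09 and 1.16 for control IgG. The bright end of the arrays was not equal after this division. The 95th percentile of all probe sets was 6.90 and 9.44 for CUGBP1 IP, and 1.94 and 4.34 for control IgG, so control IgG replicate 2 carried more signal than control IgG replicate 1. Of 9 myoblast marker probe sets, 8 were above background on all 4 arrays and the other, *Cdh15*, on 3, with 1.06 on control IgG replicate 1. None of 4 immune and none of 4 endothelial marker probe sets was above background on all arrays, and 1 of 4 epithelial (*Krt14*) and 1 of 4 neuronal (*Stmn2*) probe sets was. In the RNA of a whole immunoprecipitate, fewer cells with a transcript and less transcript per cell cannot be told apart.

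The DnaJ transcripts held the highest ratios of the group. *Dnajb1*, *Dnajc5*, *Dnajc7*, *Dnajc12* and *Dnajb4* had signal-to-negative ratios (mean of the CUGBP1 IP arrays over mean of the control IgG arrays) above 2.57, the limit of the top 5% of the 21044 probe sets. The study also took the top of this ranking as associated with CUGBP1, but over its own set of transcripts, so its limit can differ from this value. The range of enrichment it gives, in whole numbers, starts above 2.57. *Dnajb1* and *Dnajc5* exceed that start, while *Dnajc7*, *Dnajc12* and *Dnajb4* reach it only after rounding. The members above 2.57 were 5 of the 91 probe sets, or 5.50%, where 5% of all probe sets lie in that range by construction. In the test of log2 values with limma, adjusted over all 21044 probe sets, 2 members were called higher in CUGBP1 IP (*Dnajc12* and *Dnajc27*, 2.20% of the members, against 1.95% of all probe sets) and 0 were called lower (0.138% of all). At an unadjusted p under 0.05, 28 members were higher and 0 lower, where 28.6% of all probe sets were higher. The members were thus called about as often as the array as a whole. Both CUGBP1 IP values exceeded both control IgG values for 61 members (67.0%, against 66.3% of all probe sets), both were below for 0 (against 0.95%), and for 30 the groups overlapped. Of the 91 members, 63 were above background on all 4 arrays and 6 on none, against 7727 and 6589 of all 21044 probe sets. The members were thus above background more often than the array as a whole. Counted as genes, with the brightest probe set for each, 5 of 75 were in the top 5%, 2 were called higher and 54 had groups that did not overlap. The same counts were not made over all 19452 genes, so these cannot be set against the array as a whole.

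**Figure D1:**
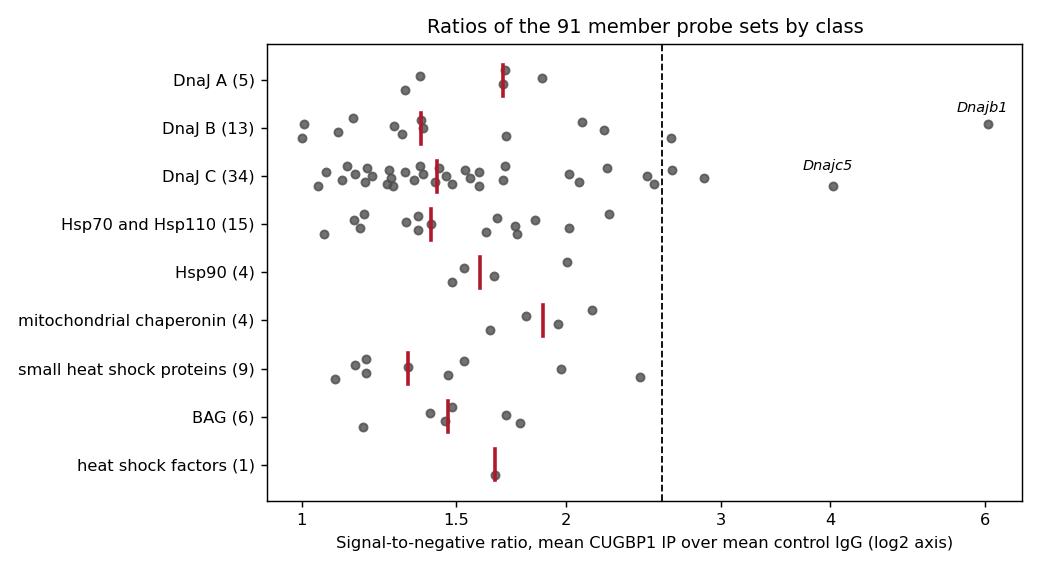
Signal-to-negative ratio of each member probe set (horizontal axis, log2 spacing, mean CUGBP1 IP over mean control IgG) by class, with the number of probe sets in parentheses. Grey points are probe sets, red lines are class medians, and the dashed line is the limit of the top 5% of all probe sets, 2.57, which 5 DnaJ B and DnaJ C probe sets exceed, *Dnajb1* with 6.05 and *Dnajc5* with 4.03 being the highest.

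*Dnajb1* encodes the heat-inducible Hsp40, the classic DnaJ partner of cytosolic Hsp70. Its signal was 12.57 and 15.40 in CUGBP1 IP, against 1.45 and 3.17 in control IgG. The groups did not overlap, although the control IgG arrays differed by a larger factor than the CUGBP1 IP arrays. The ratio was 6.05, the highest of the members, and the log2 difference was 2.70 ± 1.01 (SE, n = 2 per group), which did not pass the threshold (limma adjusted p = 0.0979). Against control IgG replicate 1 alone the ratio was 9.65 and against control IgG replicate 2 alone 4.41.

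*Dnajc5* encodes cysteine string protein, a membrane-anchored DnaJ protein of secretory and synaptic vesicles. Its signal was 5.17 and 7.03 in CUGBP1 IP, against 1.28 and 1.75 in control IgG, a ratio of 4.03. All 4 arrays were above background and the groups did not overlap. The log2 difference of 2.01 ± 0.63 (SE, n = 2 per group) lay just outside the threshold (limma adjusted p = 0.0550). With quantile normalization it was 0.89 and passed (limma adjusted p = 0.0273).

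*Dnajc12*, whose protein helps to fold the aromatic amino acid hydroxylases, had 2.77 and 3.46 in CUGBP1 IP, against 1.06 and 1.30 in control IgG. Control IgG replicate 1 was within background. *Dnajc12* was called higher by 1.40 ± 0.37 on the log2 scale (SE, n = 2 per group, limma adjusted p = 0.0237), with a ratio of 2.64. *Dnajc27*, which encodes a Rab-like GTPase with a J domain, had 2.09 and 2.65 in CUGBP1 IP, against 1.13 and 1.22 in control IgG. It was called higher by 1.00 ± 0.30 (SE, n = 2 per group, limma adjusted p = 0.0482), while its ratio of 2.02 was below the limit of the top 5%. The calls rested on the spread pooled over probe sets. The log2 difference lay between 1.24 and 1.56 for *Dnajc12* and between 0.83 and 1.17 for *Dnajc27* when each array was left out in turn. limma called neither without CUGBP1 IP replicate 1 (adjusted p = 0.281 for both), without CUGBP1 IP replicate 2 (adjusted p = 0.663), without control IgG replicate 1 (adjusted p = 0.64) or without control IgG replicate 2 (adjusted p = 0.172), fits with a single array in a group that called 0 of all probe sets. *Dnajc27* was also not called with quantile normalization (limma adjusted p = 0.186).

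*Dnajc7* encodes a cochaperone that binds both Hsp70 and Hsp90 through tetratricopeptide repeats. It had 4.07 and 4.78 in CUGBP1 IP, against 1.19 and 1.89 in control IgG, with a ratio of 2.87 (limma adjusted p = 0.0778). *Dnajb4*, a cytosolic relative of *Dnajb1*, had 4.97 and 5.32 in CUGBP1 IP, against 1.73 and 2.17 in control IgG (limma adjusted p = 0.152). In neither gene did the groups overlap. *Dnajb4* was the member just inside the top 5%, with a ratio of 2.64. *Dnajc8*, which encodes a protein found with the spliceosome, was just outside it with 2.52, from 4.89 and 4.49 in CUGBP1 IP and 1.30 and 2.42 in control IgG. Which members were in the top 5% depended on the control arrays. Without control IgG replicate 2, the top 5% held 6 member probe sets, of *Dnajb1*, *Dnajc5*, *Dnajc10*, *Hspa8* and *Hspe1*, of which 2 were among the 5 found with all arrays.

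**Figure D2:**
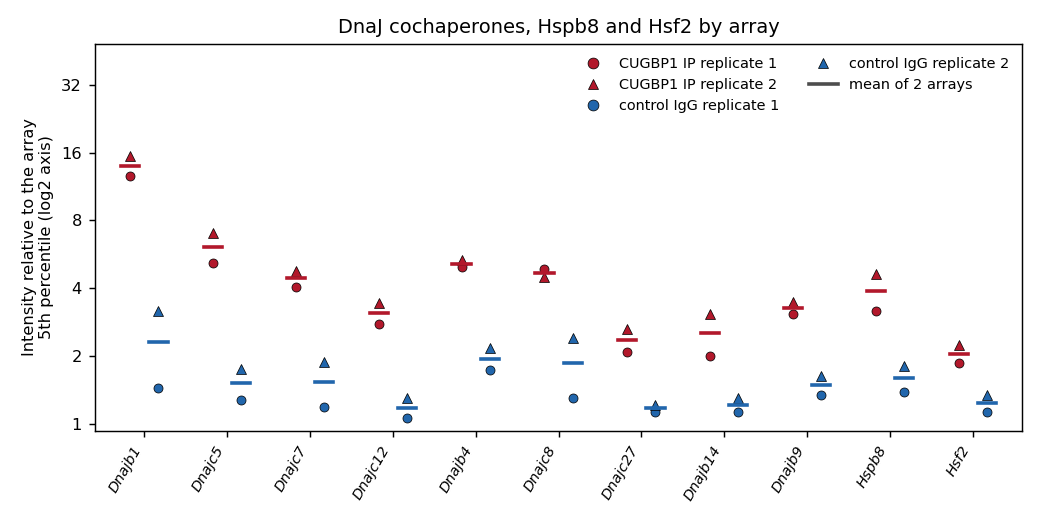
Intensity on each array (vertical axis, log2 spacing, relative to the 5th percentile of the array) for 9 DnaJ transcripts, *Hspb8* and *Hsf2*, with CUGBP1 IP (red) left of control IgG (blue), circles for replicate 1, triangles for replicate 2 and bars for the mean of 2 arrays. In each of these transcripts both CUGBP1 IP values exceed both control IgG values, by the most in *Dnajb1* (12.57 and 15.40 in CUGBP1 IP, against 1.45 and 3.17 in control IgG).

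Among the remaining DnaJ transcripts, some had separate groups and others were close to the array floor. *Dnajb14*, a DnaJ protein of the endoplasmic reticulum membrane, had 2.00 and 3.09 in CUGBP1 IP, against 1.13 and 1.31 in control IgG (a ratio of 2.09 with limma adjusted p = 0.056). *Dnajc14*, another protein of that membrane, had a ratio of 2.07. *Dnajc30*, a mitochondrial DnaJ protein linked to ATP synthase, had 4.03 and 4.88 in CUGBP1 IP, against 1.34 and 2.66 in control IgG (ratio 2.23). None of these overlapped between groups and none passed the threshold. Of all 52 DnaJ probe sets, 40 had groups that did not overlap (76.9%, against 66.3% of all probe sets) and 2 were called higher by limma (against 1.95% of all). Above background on all 4 arrays were 31 of the 52, against 7727 of all 21044 probe sets, a smaller share.

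The DnaJ A class holds the main cytosolic partners of Hsc70 and a mitochondrial protein, *Dnaja3*. All 5 probe sets of its 4 genes had CUGBP1 IP values that exceeded both control IgG values, as did 66.3% of all probe sets, with ratios between 1.31 (*Dnaja4*) and 1.88 (*Dnaja2*). *Dnaja2* had 4.17 and 4.56 in CUGBP1 IP, against 2.09 and 2.56 in control IgG (limma adjusted p = 0.278). *Dnaja1* was measured by a pair of probe sets that gave like ratios, 1.71 (2.00 and 2.06 in CUGBP1 IP, against 1.16 and 1.22 in control IgG) and 1.70 (3.89 and 4.06 in CUGBP1 IP, against 2.00 and 2.69 in control IgG). Neither passed the threshold, and with quantile normalization the log2 difference of the second was -0.52, against 0.78 as deposited.

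At the other end, *Dnajb3*, *Dnajb7*, *Dnajb13* and *Dnajc28* were within background on all 4 arrays. *Dnajb3* and *Dnajb7*, which are expressed mainly in testis, were flat: *Dnajb3* read 1.03 on every array, and *Dnajb7* read 1.01 and 1.00 in CUGBP1 IP and 0.97 and 1.03 in control IgG. *Dnajc13*, which encodes an endosomal protein that acts on clathrin and retromer coats, was represented by 8 probe sets with ratios between 1.04 and 1.42, 2 of them within background on all arrays. *Dnajb8*, also known from testis, and a *Dnajc13* probe set were above background on both CUGBP1 IP arrays and on neither control IgG array. *Dnajb8* had 1.31 and 1.44 in CUGBP1 IP and 1.03 and 1.13 in control IgG. Its ratio was 1.22 with control IgG set to the upper end of its background. The corresponding ratio for that *Dnajc13* probe set was 1.19, from 1.29 and 1.38 in CUGBP1 IP and 1.06 and 1.16 in control IgG. Ratios above 1 follow from how these probe sets were picked. The background limit is itself higher in CUGBP1 IP (1.23 and 1.29) than in control IgG (1.09 and 1.16). Over all probe sets the median signal-to-negative ratio was 1.22. Across the 10 members listed as restricted to the germ line or to particular tissues, the median log2 difference was 0.17, against 0.29 over all probe sets. Of these 10, 3 were within background on every array, against 6589 of all 21044 probe sets.

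Outside the DnaJ classes, among the chaperones, the BAG proteins and *Hsf2*, 0 of 39 probe sets reached the top 5% and 0 were called. Of all probe sets, 5% were in that range and 1.95% were called higher. With 39 probe sets, a count of 0 is close to those shares. *Hspa8* encodes Hsc70, the constitutive cytosolic Hsp70. Its 3 probe sets had 24.37 and 37.68, 58.20 and 94.26, and 45.86 and 73.65 in CUGBP1 IP, against 7.80 and 25.89, 19.78 and 67.00, and 16.78 and 51.53 in control IgG. In each of them control IgG replicate 2 lay above CUGBP1 IP replicate 1, so the groups overlapped, and the ratios were 1.84, 1.76 and 1.75. The log2 differences were 1.09 ± 1.33, 1.02 ± 0.99 and 0.98 ± 1.10 (SE, n = 2 per group), with limma adjusted p-values of 0.489, 0.393 and 0.452. *Hspa8*, *Hspd1*, *Hspe1* and *Hsp90aa1* have near-identical processed copies in the genome, so their probe sets may share signal with such copies.

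*Hspa5* encodes BiP, the Hsp70 of the endoplasmic reticulum, and had the highest ratio of its class, 2.24, from 4.07 and 6.41 in CUGBP1 IP and 1.55 and 3.13 in control IgG (limma adjusted p = 0.201). *Hspa9*, the Hsp70 of the mitochondrial matrix, had 3.31 and 5.71 in CUGBP1 IP, against 1.41 and 3.06 in control IgG (ratio 2.02). Both had groups that did not overlap. The stress-inducible *Hspa1a*, whose probes may also read the near-identical *Hspa1b*, was close to the floor, with 1.43 and 1.69 in CUGBP1 IP and 1.08 and 1.22 in control IgG, and *Hspa2*, best known from the testis, had the lowest ratio of the class, 1.06. Of the 15 Hsp70 and Hsp110 probe sets, 7 had groups that did not overlap (46.7%, against 66.3% of all probe sets).

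The mitochondrial chaperonin, which folds proteins after import into the matrix, consists of Hsp60 (*Hspd1*) and its lid Hsp10 (*Hspe1*). *Hspd1* had 5.80 and 7.88 in CUGBP1 IP, against 2.38 and 4.00 in control IgG, at 1 probe set (ratio 2.14) and 8.31 and 10.00 in CUGBP1 IP, against 2.84 and 6.50 in control IgG, at the other (ratio 1.96). The groups of *Hspd1* did not overlap. *Hspe1* had 16.96 and 34.78 in CUGBP1 IP, against 5.11 and 23.61 in control IgG (ratio 1.80), and 16.09 and 30.15 in CUGBP1 IP, against 5.03 and 23.16 in control IgG (ratio 1.64). In *Hspe1* control IgG replicate 2 was above CUGBP1 IP replicate 1, and the limma adjusted p-values of the 4 chaperonin probe sets lay between 0.314 and 0.520.

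The genes of this pair lie head to head and share a promoter, whose match to a heat shock element is shown because both genes are in the list of heat-inducible members. A heat shock factor binding element was searched as GAANNTTCNNGAA or TTCNNGAANNTTC (which are reverse complements, so both strands are covered) in RefSeq promoter windows of assembly GRCm38.p6, from 250 bases before to 50 after each start. It was present in 198 of 32851 windows (0.603%) and in 6 of 80 windows of the members (7.50%), which belong to *Hspd1*, *Hspe1*, *Dnajb6* and *Hsph1*, 4 of the 62 member genes that could be matched. The windows are not all separate sites: those of *Hspd1* and *Hspe1* hold the same site, as does a pair of *Dnajb6* windows. The letters of chr1:55088053-55088082 are read from the strand of either gene, with capitals for the matched stretch.
Hspd1 (minus strand, 144 bases before the start): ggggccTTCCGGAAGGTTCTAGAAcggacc
Hspe1 (plus strand, 89 bases before the start): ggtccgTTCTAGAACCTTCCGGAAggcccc
A match is a description of the letters, and the arrays measured RNA, not the promoter. Among the 20 probe sets of heat-inducible members (12 genes), 1 was in the top 5% (*Dnajb1*), 0 were called by limma (against 1.95% of all probe sets), 5 had higher values with an unadjusted p under 0.05 (against 28.6% of all), and 9 had groups that did not overlap (45.0%, against 66.3% of all).

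*Hsp90b1* encodes Grp94, the Hsp90 of the endoplasmic reticulum. It had 6.54 and 7.29 in CUGBP1 IP, against 2.06 and 4.84 in control IgG (a ratio of 2.00 with limma adjusted p = 0.321), and its groups did not overlap. The inducible cytosolic Hsp90, *Hsp90aa1*, overlapped at all 3 probe sets, with ratios of 1.66, 1.53 and 1.48. Its values were 3.36 and 5.03, 4.54 and 6.56, and 4.06 and 5.99 in CUGBP1 IP, against 1.61 and 3.45, 2.11 and 5.14, and 1.75 and 5.02 in control IgG. A list of 8 members of the endoplasmic reticulum (*Hspa5*, *Hspa13*, *Hsp90b1*, *Dnajb9*, *Dnajb11*, *Dnajc1*, *Dnajc3* and *Dnajc10*) had CUGBP1 IP values that exceeded both control IgG values at all 9 probe sets, as did 66.3% of all probe sets. *Dnajb12*, a DnaJ protein of the same membrane system that is outside this list, had overlapping groups, with 1.87 and 2.62 in CUGBP1 IP, against 1.33 and 1.94 in control IgG. The highest ratio among them was that of *Dnajc10*, a disulfide reductase with a J domain, 2.47, from 6.03 and 8.19 in CUGBP1 IP and 1.75 and 4.00 in control IgG. *Dnajb9*, a DnaJ protein induced by the unfolded protein response, had 3.09 and 3.47 in CUGBP1 IP, against 1.34 and 1.63 in control IgG (a ratio of 2.21 with limma adjusted p = 0.106). *Dnajc3*, an inhibitor of eIF2 kinases, had a pair of probe sets with identical values on every array (ratio 1.59), which were counted as 2 probe sets and 1 gene.

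**Figure D3:**
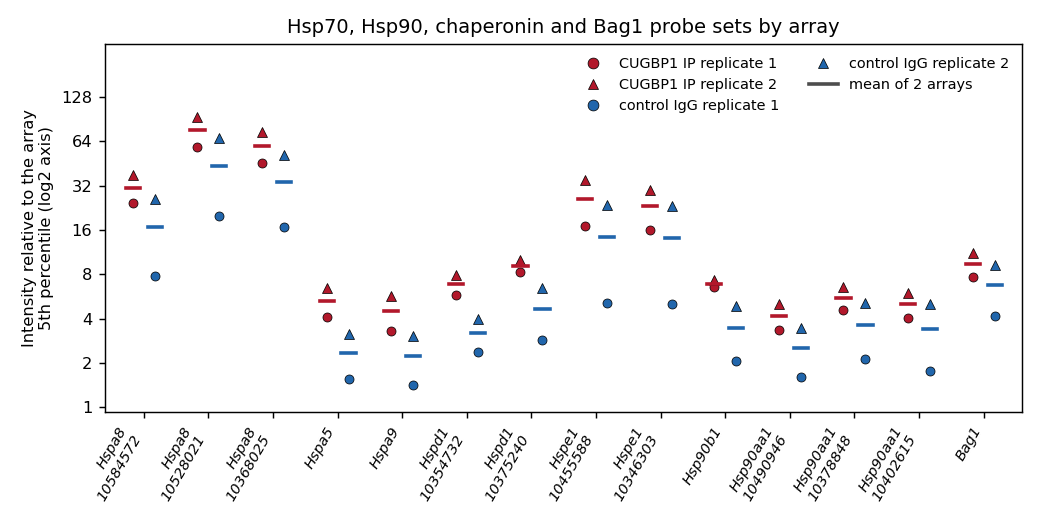
Intensity on each array (vertical axis, log2 spacing, relative to the 5th percentile of the array) for 14 probe sets of Hsp70, Hsp90, mitochondrial chaperonin and *Bag1* transcripts, with CUGBP1 IP (red) left of control IgG (blue), circles for replicate 1, triangles for replicate 2 and bars for the mean of 2 arrays. Control IgG replicate 2 lies above CUGBP1 IP replicate 1 in the *Hspa8*, *Hspe1*, *Hsp90aa1* and *Bag1* probe sets and below it in *Hspa5*, *Hspa9*, *Hspd1* and *Hsp90b1*.

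Small heat shock proteins gave 1 transcript near the limit. *Hspb8*, whose protein works with BAG3 to send damaged proteins of muscle to autophagy, had 3.16 and 4.62 in CUGBP1 IP, against 1.39 and 1.81 in control IgG (a ratio of 2.43 with limma adjusted p = 0.115). *Hspb6*, a small heat shock protein of muscle, had 4.87 and 5.62 in CUGBP1 IP, against 1.53 and 3.78 in control IgG (a ratio of 1.98 with limma adjusted p = 0.242). In both the groups did not overlap. *Hspb2*, expressed in heart and skeletal muscle, had a ratio of 1.53, and the pair of *Hspb1* probe sets had 1.47 and 1.32, the second with overlapping groups. *Hspb7* had the lowest ratio, 1.09. *Hspb3* was above background on both CUGBP1 IP arrays (1.27 and 1.31) and on neither control IgG array (1.05 and 1.13). Its ratio was 1.15 with control IgG set to the upper end of its background, a value above 1 by this choice.

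The BAG transcripts had ratios between 1.17 and 1.77. *Bag4*, a regulator of Hsp70 and of death receptor signalling, had the highest, from 2.43 and 2.82 in CUGBP1 IP and 1.38 and 1.58 in control IgG (limma adjusted p = 0.150). *Bag3*, the partner of HSPB8, had 2.11 and 3.12 in CUGBP1 IP, against 1.22 and 1.84 in control IgG (a ratio of 1.71 with limma adjusted p = 0.164). The groups of both were separate, as were those of *Bag5* and *Bag6* (ratios 1.46 and 1.48). *Bag1*, the founding nucleotide exchange factor of the family, had 7.69 and 11.12 in CUGBP1 IP, against 4.16 and 9.28 in control IgG (ratio 1.40), and *Bag2*, an inhibitor of the ubiquitin ligase CHIP, had 1.60 and 2.32 in CUGBP1 IP, against 1.34 and 2.00 in control IgG (ratio 1.17). Both overlapped. *Hsf2*, the heat shock factor that also acts in development, had 1.86 and 2.24 in CUGBP1 IP, against 1.13 and 1.34 in control IgG, a ratio of 1.66 with no overlap (limma adjusted p = 0.108).

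How large a ratio was depended on which control array it was taken against. The median ratio of the members was 1.80 against control IgG replicate 1 and 1.23 against control IgG replicate 2, where all probe sets had 1.31 and 1.13. For 33 of the 91 members the first ratio was over 1.5 times the second, against 3909 of all 21044 probe sets, a smaller share. In 25 of the 91 members control IgG replicate 2 was above CUGBP1 IP replicate 1, against 4794 of all 21044 probe sets, a somewhat smaller share. The 3 probe sets of *Hspa8* had ratios of 3.98, 3.85 and 3.56 against control IgG replicate 1, and of 1.20, 1.14 and 1.16 against control IgG replicate 2. The probe sets of *Hspe1* had 5.06 and 4.60 against control IgG replicate 1, and 1.10 and 0.998 against control IgG replicate 2. The part of the uneven control arrays in these ratios was not tested.

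**Figure D4:**
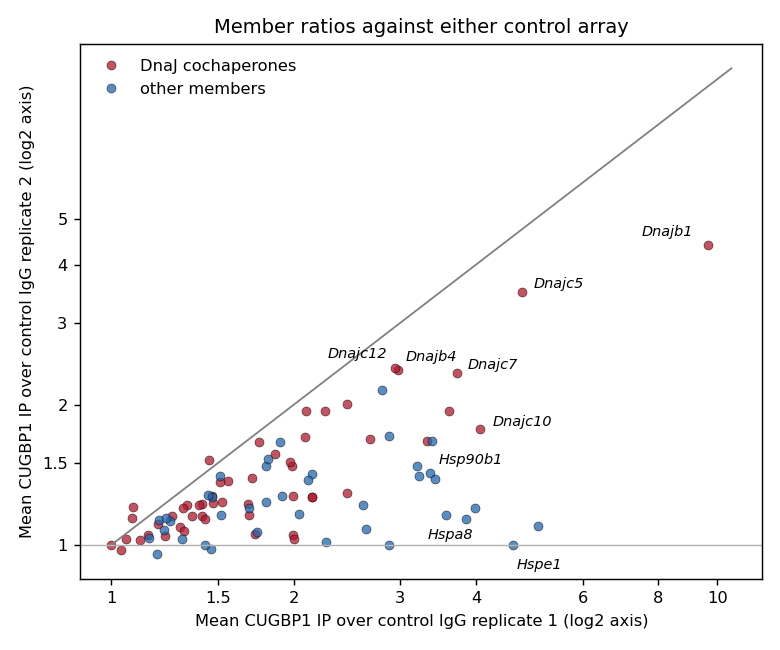
Ratio of the mean CUGBP1 IP value to control IgG replicate 1 (horizontal axis) and to control IgG replicate 2 (vertical axis), both with log2 spacing, for the 91 member probe sets. DnaJ probe sets are red, other members blue, the diagonal marks equal ratios and the horizontal line a ratio of 1. *Dnajb1* (9.65 and 4.41) and *Dnajc5* (4.77 and 3.49) are high on both axes, while *Hspe1* and *Hspa8* are near 1 on the vertical axis only.

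The direction of a class depended on the scaling in the same way. As deposited, the median log2 difference over all probe sets was 0.29 and over the members 0.57. With each array divided by its median the values were 0.00 and 0.28, and with quantile normalization -0.02 and -0.045. The gap was smaller among probe sets above background on at least 2 arrays. There the medians as deposited were 0.54 over all such probe sets and 0.65 over the members. The log2 difference was above 0 for 90 members as deposited, for 70 with arrays divided by their medians and for 33 with quantile normalization. The 4 chaperonin probe sets, the 4 Hsp90 probe sets and the 6 BAG probe sets were all above 0 as deposited and all below 0 with quantile normalization, while 26 of the 52 DnaJ probe sets remained above 0, as did 44.9% of all probe sets. With arrays divided by their medians the chaperonin and Hsp90 probe sets were all above 0. *Dnajb1*, *Dnajc5* and *Dnajc12* were called higher with quantile normalization, where 2.01% of all probe sets were (limma adjusted p = 0.0162 for *Dnajb1*). With arrays divided by their medians 8 members were, among them *Dnajc5* and *Dnajc7*, where 6.47% of all probe sets were (limma adjusted p = 0.00954 and 0.0178).

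**Figure D5:**
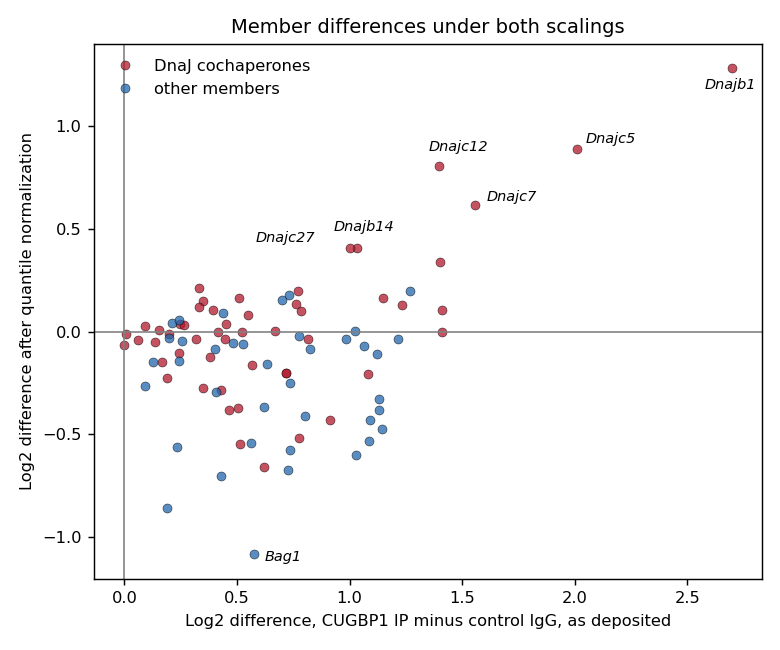
Log2 difference, CUGBP1 IP minus control IgG, of the 91 member probe sets with the values as deposited (horizontal axis) and after quantile normalization (vertical axis). DnaJ probe sets are red and other members blue. Of the members, 58 lie below 0 on the vertical axis, among them *Bag1* at -1.09, while *Dnajb1* stays at 1.28 and *Dnajc5* at 0.89.

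Other parts of the folding machinery, which the symbols do not cover, were set beside the members. Of 44 probe sets of 41 other cochaperones and chaperone regulators, limma called 2 higher (against 1.95% of all probe sets) and 0 lower (against 0.138%). In the top 5% were 6 (13.6%), of which 3 were probe sets of *Ptges3*. *Tomm34*, a cochaperone of Hsp70 and Hsp90 in mitochondrial import, had 5.41 and 7.04 in CUGBP1 IP, against 1.16 and 1.64 in control IgG (a ratio of 4.45 with limma adjusted p = 0.0356). *Chordc1*, a cochaperone of Hsp90, had 2.46 and 3.15 in CUGBP1 IP, against 1.09 and 1.31 in control IgG (a ratio of 2.34 with limma adjusted p = 0.0372). *Ptges3*, the Hsp90 cochaperone p23, had ratios of 7.52, 7.47 and 6.49 at 3 probe sets, and the lectin chaperones of the endoplasmic reticulum *Canx* and *Calr* had 4.04 and 3.33. The study named *Canx* and *Calr* from these samples, so their values are not independent of it. Of 15 probe sets of prefoldin and of the cytosolic chaperonin CCT, limma called 0. At an unadjusted p under 0.05, 3 were higher, where 28.6% of all probe sets were. In the top 5% were 4 (26.7%), *Pfdn2* with 8.30, *Cct8* with 4.02, *Pfdn5* with 3.23 and *Vbp1* with 2.62. The median log2 difference was 0.71 in the list of other cochaperones and 1.07 in that of prefoldin and CCT as deposited, and -0.06 and -0.37 with quantile normalization.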

How the data were processed

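In the deposited table each probe set has 1 linear intensity for each array, divided by the authors by the 5th percentile of that array (1.00 in every column here). The sources used here do not name the summarising program or its background removal. The detection filter in the methods is described for the arrays of a decay time course, and whether it chose the probe sets of this table is not stated. The division leaves the bright ends of arrays unequal and does not subtract the floor, which draws the ratios of dim probe sets towards 1. Of 25175 probe sets, 21044 name exactly 1 gene in the platform annotation, 1492 name several and 2639 none. Symbols were updated through a RefSeq table of GRCm38.p6. Every value column belonged to a sample (0 did not), and samples were grouped by title. Nothing in the sources says that replicates came from separate cultures, so p-values measure only the spread between these samples, which may be technical.

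Log2 values were compared with limma 3.58.1 in R 4.3.3 (lmFit, eBayes with an intensity trend, two-sided, Benjamini-Hochberg over all 21044 probe sets, threshold 0.05). Differences are CUGBP1 IP minus control IgG with moderated SE. With 2 arrays per group, an exact permutation test of 1 probe set cannot go below p = 0.333 (two-sided), and the number of arrays limits the precision. Background was the 95th percentile of 1203 receptor probe sets on each array. Genes were named if called, in the top 5% by ratio, among the 3 highest or the lowest in ratio or brightest in control IgG within their class, or measured by several probe sets. *Dnajb6*, *Dnajb7*, *Dnajb8*, *Dnajb11*, *Dnajb12*, *Dnajb13*, *Dnajb14*, *Dnajc1*, *Dnajc8*, *Dnajc14*, *Dnajc28*, *Dnajc30*, *Hspa1a*, *Hspa13*, *Hspb3*, *Hsph1* and *Bag5* fall outside this rule and were added after their values were seen. The rule for the members uses symbols only, but it and the lists were chosen with earlier results of these data known. Alternatives were other scalings, an offset, a filter on dim probe sets, no intensity trend, a replicate block and leaving out each array.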

Additional observations from a re-analysis of the deposited data

Results flagged for a closer look

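The annotation lists 9 probe sets with a member beside another gene, which entered no count above because their signal cannot be given to a gene. In 7 of them, 6 with distinct values, both CUGBP1 IP values exceeded both control IgG values, as did 66.3% of the probe sets that name 1 gene, and they are given here only because no comparison above used them. The ratios were 3.83 for probe sets 10584576 and 10584578, which hold identical values (2.60 and 5.91 in CUGBP1 IP, against 1.06 and 1.16 in control IgG), 2.38 for 10481868, 2.28 for 10585533, 2.25 for 10354404, 2.23 for 10395976 and 1.57 for 10450367. The remaining pair overlapped, with ratios of 1.37 and 1.38. With 2 arrays per group and 1 contrast, neither single deviating arrays nor differences between contrasts could be examined.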

How the results depend on the processing

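Over all probe sets, limma called 411 higher and 29 lower. The higher calls were 1362 with arrays divided by their medians, 763 with an offset of 1, 0 without the intensity trend (4757 at an unadjusted p under 0.05 in either direction) and 11809 with a replicate block. The lower calls were 18 with quantile normalization, 0 with dim probe sets left out and 0 without the trend. The 2 members called, of 91, became 8 with arrays divided by their medians, where 6.47% of all probe sets were called higher. They became 5 with an offset of 1 (against 3.63% of all) and 60 with the replicate block (against 56.1%). Without the trend they became 0, as over all probe sets. In that fit 31 members had an unadjusted p under 0.05, against 4757 of all 21044 probe sets. The block was not used as the main fit because the labels of the replicates share only a number. Same-numbered deviations from the group means had a correlation of 0.64 across probe sets. Replicate 2 also had the higher 95th percentile in both groups (9.44 against 6.90 for CUGBP1 IP, and 4.34 against 1.94 for control IgG). With 2 arrays per group the correlation cannot show whether the arrays are paired. The main fit leaves any pairing out. Leaving out each array in turn gave median log2 differences between 0.29 and 0.83 over the members and between 0.17 and 0.38 over all probe sets. In the fit without dim probe sets *Dnajc27* was not called (adjusted p = 0.0656) and *Dnajc5* was (adjusted p = 0.038). Of the 5 members in the top 5%, 3 remained by geometric means (*Dnajb1*, *Dnajc5*, *Dnajc7*), and 2 when dim probe sets were left out (*Dnajb1*, *Dnajc5*). The 61 members whose groups did not overlap became 15 with quantile normalization (16.5%, against 19.4% of all probe sets) and 45 with arrays divided by their medians (49.5%, against 30.8%). Choosing the probe set with the median ratio for each gene gave the same counts by gene.

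With quantile normalization 58 members changed sign. The log2 differences were then -0.60 and -0.48 for *Hspe1*, -0.38 and -0.53 for *Hspd1*, -0.036 and -0.43 for *Hspa8*, -0.67, -0.58 and -0.41 for *Hsp90aa1*, -0.33 for *Hsp90b1*, -0.069 for *Hspa9*, -0.035 for *Hspa5*, -1.09 for *Bag1* and -0.52 for *Dnaja1*. Leaving out each array in turn gave ranges of -0.073 to 2.13 for a probe set of *Hspe1*, -0.026 to 1.49 for a probe set of *Hsp90aa1* and -0.0051 to 1.15 for *Bag1*, the lowest without control IgG replicate 1 in each. The cause of these changes was not tested.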
